A study of Homo sapiens with 4 samples.

Results

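The translocases that carry proteins into mitochondria were examined in H1299 and A549, human lines of non-small cell lung cancer, after siRNA against hMOF, the histone H4 acetyltransferase encoded by KAT8. The gene set held 10 genes, namely TOMM22, TOMM20, TOMM70, TOMM40, TOMM5 and TOMM7 of the outer membrane and TIMM23, TIMM17A, TIMM50 and TIMM44 of the inner membrane. Members were the probe sets annotated to exactly 1 of these genes, 19 of the 54675 on the array. They covered 9 of the 10 genes, and 8 genes with 16 probe sets passed the signal minimum of 78.1, set on the mean of the arrays. The 4 groups were H1299 with hMOF siRNA, H1299 with scramble siRNA, A549 with hMOF siRNA and A549 with scramble siRNA, with 1 Affymetrix array each. H1299 is a line from a lymph node metastasis that lacks p53, and A549 is an adenocarcinoma line with mutant KEAP1. Both were grown in DMEM with 10% serum and transfected with Lipofectamine, so the scramble arrays share the transfection. The large ratio of TOMM22 with hMOF siRNA was known when the gene set was put together, and the siRNA ratios of all members are therefore given as a description with no test.

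Most mitochondrial proteins are made in the cytosol and imported. In the outer membrane the TOM complex receives them, with TOMM20, TOMM22 and TOMM70 as receptors, TOMM40 as the channel and small subunits such as TOMM5 and TOMM7 around it. Proteins with a cleavable presequence then pass to the TIM23 complex, where TIMM50 receives them, TIMM23 and TIMM17A form the membrane core and TIMM44 holds the Hsp70 motor that pulls them into the matrix. Lung cancer cells, like other cells, need this route for their respiratory chain and matrix enzymes.

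The target of the siRNA read lower with hMOF siRNA in both lines. KAT8 signal was 61.8 with hMOF siRNA, against 241 with scramble, in H1299. In A549 it was 106 with hMOF siRNA and 402 with scramble, which left 25.6% of the scramble signal in H1299 and 26.4% in A549. Groups follow the source names of the arrays, and KAT8 was lower on the arrays so named, whereas the treatment tag of 2 arrays names the other siRNA. Of the 7 measured A549 markers, 6 were lower in H1299 by limma, for example AKR1B10, an aldo-keto reductase, at 27.2 and 30.0 in H1299 (hMOF siRNA and scramble) and 12909 and 15007 in A549. TXNRD1 did not pass. AKR1B10, AKR1C2, AKR1C3, ALDH3A1 and CDH1 read under the signal minimum in H1299 and were kept through their A549 signal. The direction of their calls was thus set by the filter, and these calls do not test the identity of the lines. Of the H1299 markers, VIM and ZEB1 were higher in H1299 and CDH2 was lower there, against its place on the list. Of the markers of blood, fibroblast and endothelial cells, 4 had a probe set and 3 passed the signal minimum, which PTPRC did not. The summed signal of the 4 was 332 and 356 in H1299 and 1535.5 and 864.5 in A549. In H1299 most of it came from 1 probe set of PECAM1 (205 and 220), whose other probe sets did not pass the minimum. In A549 most of it came from COL1A1 (1191 and 541), whose part in the results was not tested. The 3'/5' ratio of the ACTB control probe sets was 2.64 with hMOF siRNA and 2.89 with scramble in H1299, and 2.78 and 3.11 in A549, so it was lower with hMOF siRNA in both lines. That of GAPDH was 1.09 and 1.10 in H1299 and 1.20 and 1.18 in A549. The part of RNA integrity in the siRNA ratios below was not tested.

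TOMM22, the central receptor that hands presequences on to the channel, was the member with the largest siRNA ratio in both lines. Probe set 222474_s_at, which represents the gene because its mean signal is highest, read 1398 with hMOF siRNA and 258 with scramble in H1299. In A549 it read 672 with hMOF siRNA and 230 with scramble. The scramble arrays of the lines were thus close to each other, and both hMOF siRNA arrays stood above both scramble arrays. The signal was 5.41-fold higher in H1299 and 2.92-fold higher in A549. All further ratios are log2 values of signal plus an offset of 29.06, which shrinks ratios of dim probe sets, and on that scale TOMM22 stood at 2.31 in H1299 and 1.44 in A549 (mean 1.87 ± 0.62, SD, n = 2 lines). Among the 12830 genes analysed, TOMM22 ranked 4 in H1299 and 19 in A549 when ratios were ordered from the highest. In RNA of a whole culture, a change in all cells and a change in some of them cannot be told apart.

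The other TOMM22 probe sets ran the same way. Probe set 217960_s_at read 1114 with hMOF siRNA and 211 with scramble in H1299, and 437 and 174 in A549, giving log2 ratios of 2.25 and 1.20. The dimmer 229076_s_at read 279.6 and 89.7 in H1299 and 150.3 and 73.8 in A549, giving 1.38 and 0.80. The A549 scramble value of this probe set lay under the signal minimum. All 3 probe sets put the arrays in one order, from H1299 with hMOF siRNA through A549 with hMOF siRNA and H1299 with scramble to A549 with scramble, and the signal was over 2-fold higher in both lines on all 3, although with the offset added 229076_s_at stayed under 2-fold in A549. With 1 array per group there is no spread by which to judge neighbours in this order. The excess of the H1299 ratio over the A549 ratio was 0.88 for the gene, and that difference between lines was not tested.

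**Figure D1:**
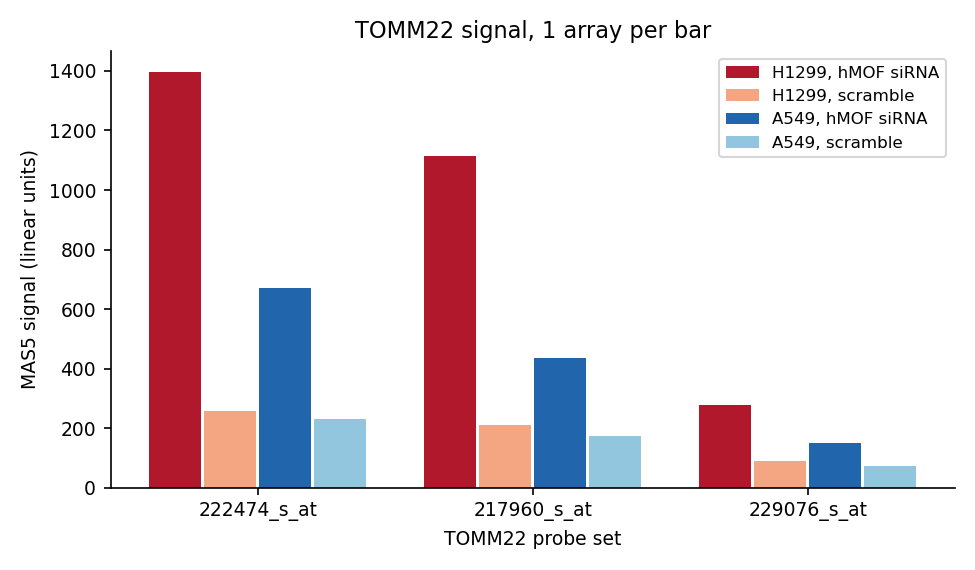
MAS5 signal of the 3 TOMM22 probe sets (linear units, from 0), 1 bar per array, with hMOF siRNA left of scramble for H1299 and then A549. In each probe set both hMOF siRNA bars exceed both scramble bars, and the H1299 hMOF siRNA bar is the tallest, at 1398, 1114 and 279.6.

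The promoter windows of the 3 receptor genes are shown because these receptors work side by side in 1 complex, while the siRNA ratios of TOMM22 lay far above those of TOMM20 and TOMM70. Each runs from 250 bases before to 50 bases after the gene's start in RefSeq (GRCh38.p14), 5′ to 3′ on the gene's strand. Windows lie at chr22:38681707-38682006 (plus strand) for TOMM22, chr1:235128788-235129087 (minus strand) for TOMM20 and chr3:100401040-100401339 (minus strand) for TOMM70. Capitals mark the words searched, CCGGAAG on either strand for ETS factors such as GABP and, for NRF1, GCGC followed by any 2 bases and GCGC again, all known regulators of nuclear genes for mitochondria.
TOMM22: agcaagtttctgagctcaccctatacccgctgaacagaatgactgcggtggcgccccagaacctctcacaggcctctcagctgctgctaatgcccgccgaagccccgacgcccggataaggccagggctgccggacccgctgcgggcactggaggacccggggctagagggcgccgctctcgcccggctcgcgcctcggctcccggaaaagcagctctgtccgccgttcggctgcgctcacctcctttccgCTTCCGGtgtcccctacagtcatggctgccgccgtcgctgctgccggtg
TOMM20: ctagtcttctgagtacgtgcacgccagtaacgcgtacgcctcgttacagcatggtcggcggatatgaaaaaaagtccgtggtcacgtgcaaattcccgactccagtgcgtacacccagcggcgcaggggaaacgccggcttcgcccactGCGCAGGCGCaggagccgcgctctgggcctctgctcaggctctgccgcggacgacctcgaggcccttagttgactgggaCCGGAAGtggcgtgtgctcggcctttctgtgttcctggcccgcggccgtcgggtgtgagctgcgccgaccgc
TOMM70: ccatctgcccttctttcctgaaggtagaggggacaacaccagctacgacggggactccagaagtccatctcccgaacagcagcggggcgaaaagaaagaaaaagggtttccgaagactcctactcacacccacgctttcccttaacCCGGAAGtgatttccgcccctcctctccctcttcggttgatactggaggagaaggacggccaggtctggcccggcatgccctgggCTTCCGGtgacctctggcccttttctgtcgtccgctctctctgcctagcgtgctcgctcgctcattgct
The ETS word began at base 252 of the TOMM22 window, next to the gene's start, at base 229 of the TOMM20 window and at bases 147 and 232 of the TOMM70 window. The NRF1 word occurred in the TOMM20 window at base 150 and not in the other pair. No match overlapped another.

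Of the 10 members, 9 had a promoter in the RefSeq table. The ETS word was in 4 of those 9 windows (TOMM20, TOMM70, TIMM23 and TOMM22) and in 10.3% of all 35116 windows. The NRF1 word was in 3 (TOMM20, TOMM7 and TOMM40) against 8.32% of all windows, and the YY1 word AAGATGGCG, searched on both strands, in TIMM50 alone against 1.75%. The TOMM22 window had 68.3% G and C, as had that of TIMM50, against a median of 58.7% over all windows. Over the 9 member windows the lowest was TOMM7 at 54.3%. A match describes letters in the window and does not show that a factor binds there.

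The other receptors had ratios near 0. TOMM20, which binds presequences first, read 2685 with hMOF siRNA and 2694 with scramble in H1299, and 4109 and 3915 in A549 (200662_s_at; log2 ratios 0.00 and 0.07). Its second probe set, 212773_s_at, read 2165 and 2583 in H1299 and 1884 and 1951 in A549 (−0.25 and −0.05). TOMM70, the receptor for hydrophobic carrier proteins delivered by chaperones, read 2629 and 2409 in H1299 and 2448 and 2571 in A549 (201519_at; 0.12 and −0.07). Probe set 201512_s_at gave TOMM70 931 and 747 in H1299 and 670 and 645 in A549 (0.31 and 0.05). For both genes the ratio of the highest to the lowest of the 4 arrays on a probe set was far smaller than for TOMM22.

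TOMM40, the channel through which all these proteins cross the outer membrane, read 495 with hMOF siRNA and 562 with scramble in H1299, and 637 and 731 in A549 (202264_s_at; −0.17 and −0.19). TOMM5, a small subunit that helps the complex assemble, read 6649 and 6307 in H1299 and 5678 and 6914 in A549 (225036_at; 0.08 and −0.28). Its second probe set 228053_s_at gave 0.05 and −0.23, so the lines stood on opposite sides of 0 on both. TOMM7 had no probe set of its own, and the one it shares with C4orf46 read 5679 and 6013 in H1299 and 4420 and 4926 in A549 (201812_s_at; −0.08 and −0.16). What part of that signal belongs to TOMM7 cannot be told apart.

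In the TIM23 complex, TIMM44 came next after TOMM22 in H1299. This peripheral subunit, which docks the Hsp70 motor, read 672 with hMOF siRNA and 389 with scramble in H1299, and 339 and 315 in A549 (203092_at; 0.75 and 0.10). Probe set 203093_s_at read 230 and 149 in H1299 and 136.5 and 121 in A549 (0.54 and 0.14). The H1299 array with hMOF siRNA was thus the highest on both, and the other 3 arrays lay close together. TIMM44 did not reach 2-fold in either line.

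TIMM17A, a core subunit of the TIM23 channel, was lower with hMOF siRNA in both lines. It read 1597 with hMOF siRNA and 2011 with scramble in H1299, and 2975 and 3888 in A549 (215171_s_at; −0.33 and −0.38). Probe set 201821_s_at gave −0.27 and −0.44. Of its probe sets under the minimum, 201822_at gave −0.22 and −0.31, and 215168_at read between 1.33 and 6.33 on the 4 arrays. Within each of the 2 brighter probe sets, both A549 values lay above both H1299 values.

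TIMM50, the receptor of the TIM23 complex in the intermembrane space, depended on the probe set. On 224913_s_at it read 1305 with hMOF siRNA and 1664 with scramble in H1299, and 1834 and 2149 in A549 (−0.34 and −0.23). On the dimmer 217612_at it read 112 and 104 in H1299 and 144 and 135 in A549 (0.08 and 0.08), with the opposite sign in both lines. TIMM23, the channel subunit, had a single probe set of its own, 224038_at, which read 18.9 and 30.1 in H1299 and 20.8 and 23.2 in A549, under the minimum. The 3 brighter probe sets shared by TIMM23 and its near-identical copy TIMM23B gave ratios of 0.14 to 0.27 in H1299 and 0.02 to 0.18 in A549. On these probe sets the signals of the copies cannot be told apart. Probe set 229428_at, annotated to TIMM23B alone, gave −0.20 in H1299 and −0.16 in A549, with the opposite sign to the shared probe sets.

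**Figure D2:**
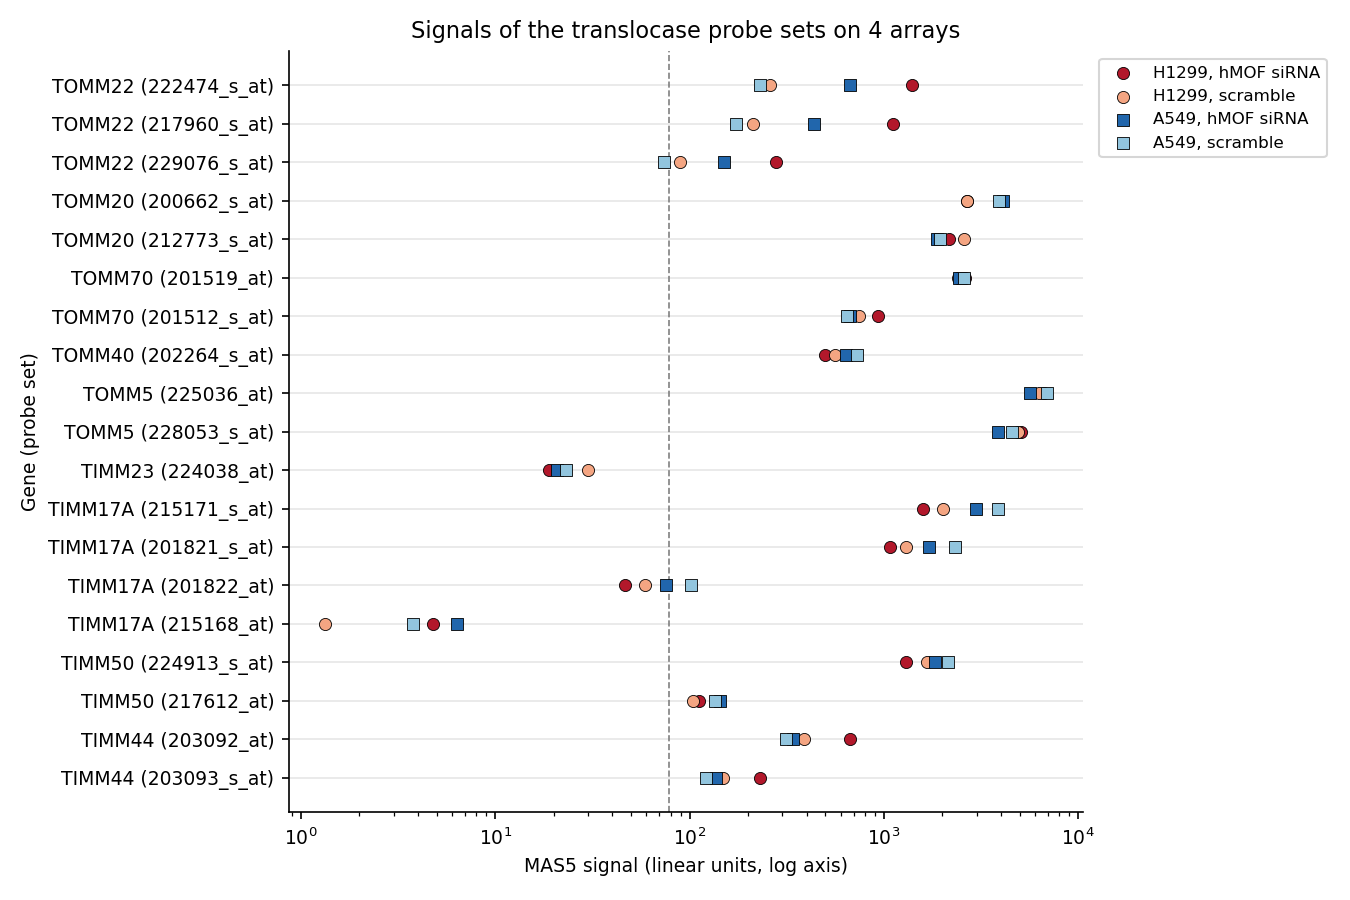
MAS5 signal (log axis) of the 19 member probe sets, grouped by gene, on the 4 arrays, with circles for H1299, squares for A549 and the darker shade for hMOF siRNA; the dashed line is the signal minimum of 78.1. The hMOF siRNA points stand apart from the scramble points for TOMM22, while TIMM17A separates by line, with A549 to the right.

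With hMOF siRNA, 1 of the 8 members kept, TOMM22, was at least 2-fold higher in H1299, where 1.22% of the 12830 genes were, and 1 was in A549, again TOMM22, where 0.717% were. None was 2-fold lower, against 2.21% of all genes in H1299 and 1.14% in A549. TOMM22 was one of 37 genes at least 2-fold higher in both lines, 0.288% of those analysed. The median log2 ratio of the 8 members was 0.04 in H1299 and −0.13 in A549, against −0.01 and −0.02 over all genes. Over the 13 kept probe sets of the members other than TOMM22, ratios ran from −0.34 to 0.75 in H1299 and from −0.44 to 0.14 in A549. None of the 7 members kept other than TOMM22 reached 2-fold in either line. In 3 of the 8 (TOMM20, TOMM70 and TOMM5) the ratios of the representing probe set had opposite signs in the lines, as in 31.7% of all genes. On the second kept probe set, TOMM20 (−0.25 in H1299 and −0.05 in A549) and TOMM70 (0.31 and 0.05) had the same sign in both lines. TOMM5 again had opposite signs there (0.05 and −0.23).

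**Figure D3:**
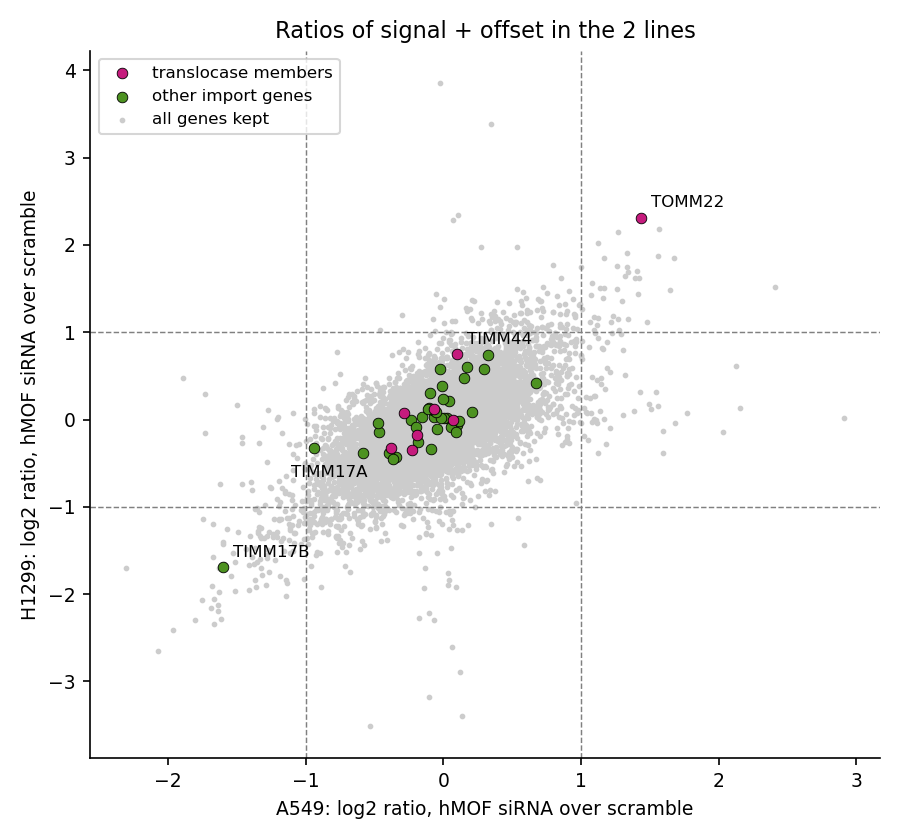
Log2 ratio of hMOF siRNA over scramble (signal + 29.06) in A549 (x axis) and H1299 (y axis) for the 12830 genes kept (grey), the 37 other import genes (green) and the 8 members (magenta); dashed lines mark 2-fold. TOMM22 stands at 1.44 and 2.31, TIMM17B in the opposite corner at −1.60 and −1.69, and the remaining import genes lie within 2-fold in both lines.

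The rest of the import machinery was read from a list of 39 genes, of which 37 were measured. Fitted over both lines with a block for line, limma called 1 of the 37 lower with hMOF siRNA and none higher, against 2.41% and 1.16% of all genes, and 10 of the 37 had an unadjusted p under 0.05, as had 23.8% of all genes. The gene called was TIMM17B, the X-linked paralog of TIMM17A in the TIM23 channel. Its probe set 203342_at read 356 with hMOF siRNA and 1211 with scramble in H1299, and 342 and 1099 in A549. The signals with hMOF siRNA were close in the lines, and both scramble signals lay far above them (log2 −1.69 and −1.60; mean −1.65, SE 0.11, limma adjusted p = 0.0288). A dim second probe set, 1559909_a_at, read 49.4 and 36.2 in H1299 and 59.0 and 53.1 in A549. The paralog TIMM17A stood at a mean of −0.35, and the difference between the paralogs was not tested.

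In each functional group, the gene with the largest change over both lines is given here, and apart from TIMM17B none of them passed limma's test. TOMM40L, a paralog of the channel, stood at 0.75 in H1299 and 0.32 in A549 (adjusted p = 0.114). MTX1, a metaxin of the outer membrane insertion machinery, stood at −0.43 and −0.34. TIMM8B, a small chaperone of the intermembrane space, stood at 0.58 and 0.29 (adjusted p = 0.128), and TIMM29 of the TIM22 complex at −0.39 and −0.40. GRPEL1, the nucleotide exchange factor of the motor, stood at −0.33 and −0.94. Its second kept probe set, 212432_at, gave 0.06 and −0.59, so the sign in H1299 depended on the probe set. IMMP2L, an inner membrane peptidase, stood at 0.42 and 0.68 (limma adjusted p = 0.0815). GFER, the sulfhydryl oxidase of the disulfide relay, stood at 0.21 and 0.04, the insertase gene OXA1L at −0.14 and 0.09, and the chaperonin gene HSPD1 at 0.48 and 0.15. The median over the 37 genes was 0.02 in H1299 and −0.05 in A549, close to that of all genes. When each probe set was tested on its own, TIMM8B also passed, through 223478_at (0.92 and 0.48; limma adjusted p = 0.0450).

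Regulators of mitochondrial gene expression, most of them transcription factors, were a second list. Of 11 measured, limma called 1 lower with hMOF siRNA and none higher, against 2.41% and 1.16% of all genes. An unadjusted p under 0.05 was found for 4 of the 11, against 23.8% of all genes. TFB1M, a methyltransferase that modifies mitochondrial ribosomal RNA, read 521 with hMOF siRNA and 888 with scramble in H1299, and 274 and 484 in A549 (228075_x_at; −0.74 and −0.76; limma adjusted p = 0.0434). Its call was lost when all its kept probe sets were averaged (mean −0.48, limma adjusted p = 0.0689). TFAM, which packages and transcribes mitochondrial DNA, was 2-fold lower in A549 (757 with hMOF siRNA and 1615 with scramble; −1.06) and stood at −0.44 in H1299, and did not pass over both lines (limma adjusted p = 0.0919). NRF1 stood at −0.05 and 0.05, GABPA at 0.31 and −0.15 and YY1 at 0.31 and 0.03, none of which passed.

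Genes known to respond when import or mitochondrial folding fails made up a further list of 12, of which HSPA9, HSPD1 and HSPE1 also stood on the import list. LONP1, the matrix protease that degrades misfolded proteins, rose, 1 of 12 against 1.16% of all genes. It read 877 with hMOF siRNA and 319 with scramble in H1299, and 1042 and 529 in A549 (log2 1.38 and 0.94; mean 1.16, SE 0.15, limma adjusted p = 0.0357). The other 11 did not pass, among them ATF4 at 0.17 and 0.06, DDIT3 at 0.12 and −0.06, ATF5 at 0.00 and 0.69 and the chaperone gene HSPA9 at 0.31 and −0.10. The other kept probe sets of ATF5 ran from −0.02 to 0.31 in A549. Those of HSPA9 gave 0.43 and −0.0009 (200692_s_at) and −0.14 and −0.34 (200690_at), so its sign in H1299 depended on the probe set. The median of the list was 0.15 in H1299 and 0.00 in A549.

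The 3 genes kept on either side of TOMM22 on chromosome 22 were within 2-fold in both lines. CBY1 stood at 0.19 in H1299 and 0.20 in A549, JOSD1, a deubiquitinase gene, at 0.37 and 0.24, and GTPBP1 at −0.45 and −0.50. DMC1 was at 0.04 and 0.05, DDX17 at −0.05 and −0.10 and SUN2 at 0.38 and 0.25. None of these 6 was called by limma over both lines, and their adjusted p values ran from 0.0837 to 0.850.

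**Figure D4:**
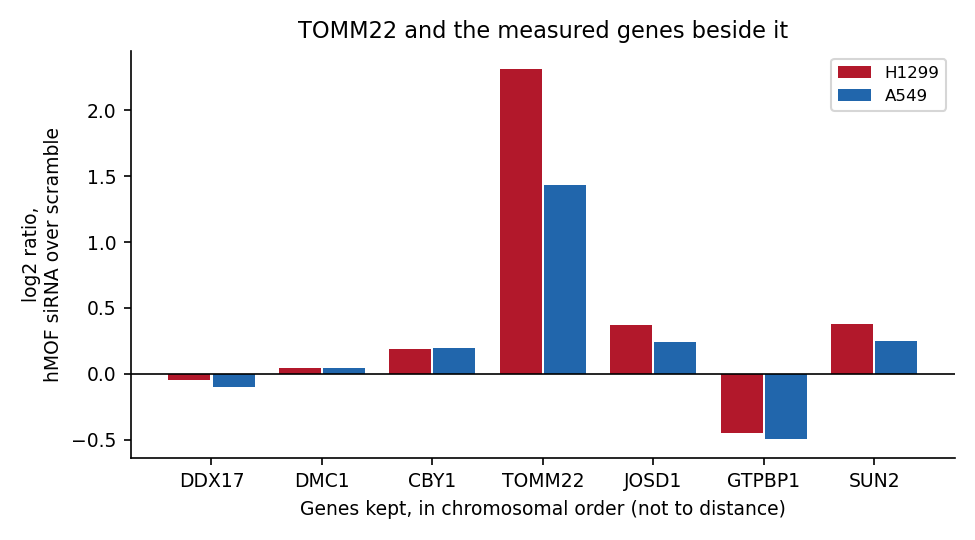
Log2 ratio of hMOF siRNA over scramble in H1299 and A549 for TOMM22 and the 3 genes kept on each side of it, in chromosomal order and not to distance. TOMM22 stands at 2.31 and 1.44, and the 6 neighbours lie between −0.50 and 0.38.

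The gene whose profile over the 4 arrays lay closest to that of TOMM22 was FMC1, an assembly factor of mitochondrial ATP synthase. Likeness was measured as the Euclidean distance between log2 profiles, each centred on its own mean, and the median distance of all genes from TOMM22 was 2.11. FMC1 lay at 0.27 and read 2240 with hMOF siRNA and 469.5 with scramble in H1299, and 1008 and 321 in A549. It was followed by ENSA, a phosphatase inhibitor gene (0.52), HDGFL2 (0.61), the Golgi matrix protein gene GOLGA2 (0.64) and the glucosidase subunit gene GANAB (0.66). With 4 arrays such nearness describes these values only.

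Between the lines, 5 of the 8 members kept differed by limma with siRNA as a block, 1 higher and 4 lower in H1299, where 52.4% of all genes differed (25.1% higher and 27.3% lower). The share of members called in either direction was therefore near that of all genes. TIMM17A was lower in H1299, by 0.89 on the hMOF siRNA arrays and by 0.94 on the scramble arrays (mean −0.91, SE 0.11, limma adjusted p = 0.00255). TIMM50 was lower as well (−0.48 and −0.36, limma adjusted p = 0.0290), as was TOMM40 (−0.34 and −0.36, limma adjusted p = 0.0446). The TOMM40 call was lost with no offset, after centring or quantile normalization and with eBayes trend, over which its adjusted p ran from 0.0543 to 0.0599. TIMM44 was higher in H1299, at 0.93 on the hMOF siRNA arrays and 0.28 on the scramble arrays (limma adjusted p = 0.0446), and did not pass when no signal minimum was set (0.0553).

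TOMM20 differed in direction between its probe sets. On 200662_s_at it was lower in H1299 (−0.61 on the hMOF siRNA arrays and −0.53 on the scramble arrays, limma adjusted p = 0.0109). On 212773_s_at it stood higher in H1299 at 0.20 and 0.40, and averaging both ended the call (mean −0.14, limma adjusted p = 0.329). TOMM22, which was not among the 5, stood at 1.02 on the hMOF siRNA arrays and 0.15 on the scramble arrays. The hMOF siRNA arrays hold the values that led to the gene set, so this is a description. TOMM5 (0.23 and −0.13) and TOMM70 (0.10 and −0.09) did not pass, and on these representing probe sets each stood on opposite sides of 0 under the 2 siRNAs. On the second kept probe set TOMM5 stood at 0.37 and 0.09 (228053_s_at) and TOMM70 at 0.46 and 0.20 (201512_s_at), above 0 under both siRNAs. TIMM23B, read by 229428_at, gave −0.92 and −0.88, whereas the probe sets it shares with TIMM23 gave −0.11 to 0.12.

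**Figure D5:**
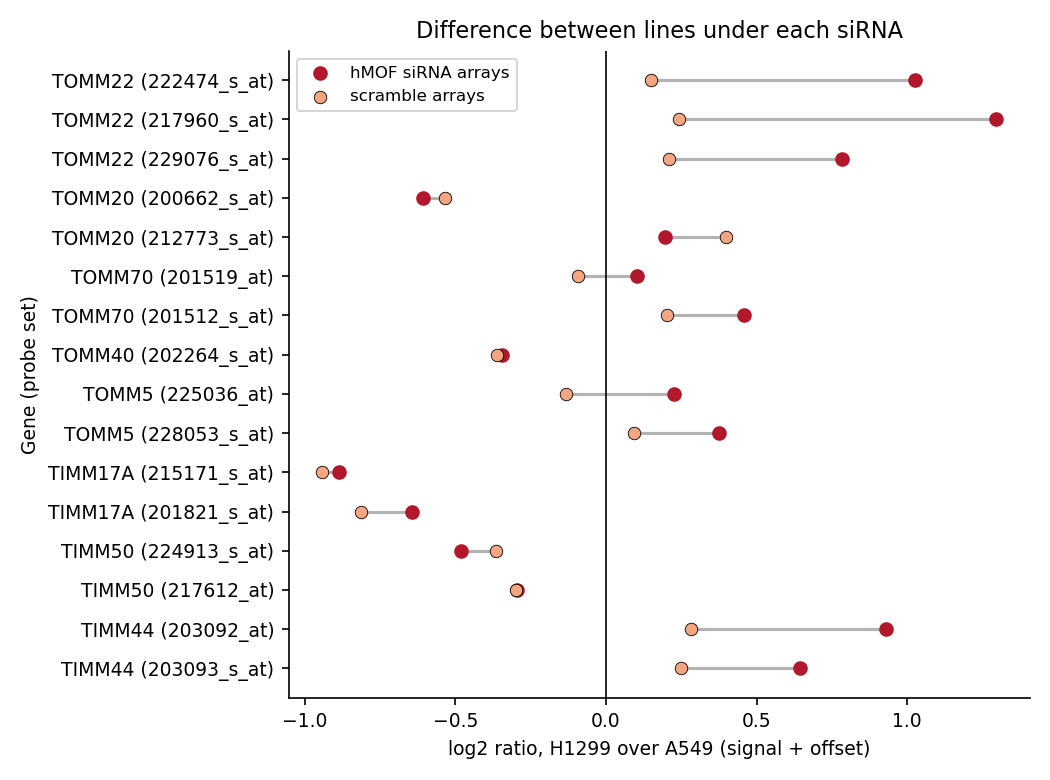
Log2 ratio of H1299 over A549 (signal + 29.06) for the 16 kept member probe sets, with 1 point for the hMOF siRNA arrays and 1 for the scramble arrays joined by a line. TIMM17A lies left of 0 under both siRNAs, the TOMM20 probe sets lie on opposite sides of 0, and the TOMM22 and TIMM44 pairs spread most, with the hMOF siRNA point to the right.

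Of the 37 other import genes, 14 were higher and 7 lower in H1299 by limma with siRNA as a block, and 16 did not pass. Among all genes, 25.1% were higher and 27.3% lower. The share called in either direction was near the 52.4% of all genes, but calls higher in H1299 outnumbered calls lower. The median log2 ratio of the 37 was 0.33 on the hMOF siRNA arrays and 0.07 on the scramble arrays. Over all genes it was −0.02 and −0.04, and the tilt was not tested. The motor subunit gene DNAJC15, among those called lower, read 29.9 with hMOF siRNA and 25.6 with scramble in H1299, under the signal minimum, and 232 and 246 in A549 (218435_at). It was thus kept through its A549 signal, and its ratios of −2.15 and −2.33 depend on the offset. Its paralog DNAJC19 stood at 1.08 on the hMOF siRNA arrays and 1.09 on the scramble arrays. TIMM9, a small chaperone of the intermembrane space, stood at −0.95 and −1.08. TIMM17B stood at 0.05 and 0.14 and did not pass (limma adjusted p = 0.512).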

How the data were processed

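Signal intensities of 54675 probe sets on 4 arrays, linear MAS5 values per the submitters' processing notes, were used as the authors deposited them. For the MAS5 version and scaling target, the sources used here give nothing. Median signals were 73.2 to 75.3. Probe sets were named through the platform annotation (41091 with 1 gene, 1801 with several, 11721 with none), with symbols looked up in RefSeq (GRCh38.p14). The offset added before log2, 29.06, is the 20th percentile of all signals, and the signal minimum, 78.1, the 50th percentile of probe set means. The brightest kept probe set stood for its gene, leaving 12830 of 19775 genes. limma 3.58.1 in R 4.3.3 (lmFit, eBayes) was fitted to all 4 arrays with terms for line and siRNA (1 residual and 3.74 prior degrees of freedom). Adjusted p values (Benjamini-Hochberg, over all genes) were held to 0.05. With 1 array per group, the residual spread of a gene is how far its siRNA ratio differed between the lines. In such p values a prior spread estimated over all genes, with 3.74 degrees of freedom, outweighs the gene's own residual spread, with 1. Technical and biological parts of that spread cannot be told apart in these 4 arrays. The number of arrays limits the precision. The siRNA comparison was tested on simulated data (20 runs, 12830 genes). There limma found 76.0% of 2-fold and 98.8% of 4-fold changes, with 7.42% of its calls false. In those data 200 genes changed by the same amount in both lines, with noise drawn from the spread that limma had estimated. No gene was given a response that differed between the lines, so these shares hold for that setting only.

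Named genes were the members, KAT8, called or 2-fold genes of the lists, the largest change per group, 3 neighbours each side and the 5 nearest profiles; other list genes that the text names were chosen after their values were seen. Members, lists and promoter words were chosen with earlier results of these data known. Alternatives were other offsets, minima, scalings, probe set rules, no block, trend and a fit per probe set. Figures were drawn with matplotlib 3.10.9.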

Additional observations from a re-analysis of the deposited data

Results flagged for a closer look

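In 3 members the siRNA ratio of the representing probe set had opposite signs in the lines, as it did in 31.7% of all genes. TOMM5 stood at 0.08 in H1299 and −0.28 in A549, a difference of 0.36. TOMM70 stood at 0.12 and −0.07, a difference of 0.19. TOMM20 stood at −0.0047 and 0.07, a difference of −0.074. With 1 array per line and siRNA these differences were not tested.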

How the results depend on the processing

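TOMM22 stayed the only member at 2-fold in each line under all 8 alternatives that give a ratio (count 1 throughout), and its mean log2 ratio ran from 1.56, with its probe sets averaged, to 1.99, with no offset. With each kept probe set tested on its own, limma called 6 members between the lines (TOMM22 added), against 5. For TOMM22 the hMOF siRNA arrays hold the values that led to the gene set, so that call is a description. Without a block, limma called 2 members between the lines (TIMM17A and TOMM20), against 5. Without a block it also called 0 other import genes, 0 regulators of mitochondrial gene expression and 0 stress genes with hMOF siRNA, against 1 each. At an unadjusted p under 0.05 there were then 1, 0 and 1, and 0 of all genes passed, with 350 unadjusted. With each kept probe set tested on its own, 2 other import genes (TIMM8B added) and 2 such regulators (TFAM added) passed. With probe sets averaged, 0 of these regulators passed by limma, with 3 at an unadjusted p under 0.05. TIMM17B and LONP1 passed under the 9 other gene-level alternatives, with adjusted p values from 0.0167 to 0.0322 and from 0.0214 to 0.0414. Over all genes, limma called 149 higher and 309 lower with hMOF siRNA, against 295 higher and 381 lower with quantiles made equal. With array medians made equal instead, 132 were higher and 285 lower. Calls of other import genes between the lines ran from 14 to 25, against 21. Each group had 1 array, so no array could be left out within a group, and each line's own ratio stands in the text. The siRNAs were compared within each line, with cell line as the block, and the labels carry no replicate numbers that would pair arrays further. Dim probe sets, such as that of TIMM23, allow no statement. The causes of lost calls were not tested.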
